A study of Mus musculus with 24 samples.

Results

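The hippocampus and the cerebellum of sham-operated mice were compared gene by gene, to describe what sets the expression of both regions apart without the operation that the study set out to examine. The libraries were taken by their labels: all those of hippocampus and all those of cerebellum whose mice had the sham operation, 5 of each, or 10 of the 24 libraries of the series. The mice of both groups were wild type, and the sham operation is the one thing done to all of them; their age, sex and strain are not stated in the labels used. Further groups that enter a check are 4 hippocampus and 2 cerebellum libraries of wild-type mice after bulbectomy, the removal of the olfactory bulbs. Each library is polyA RNA from dissected tissue, so that a gene can differ because more cells of a type are present or because each cell holds more of its RNA, and these cannot be told apart here. Nothing in the labels says that libraries of a group came from separate mice, and p-values therefore measure the spread between these libraries.

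The hippocampus is part of the telencephalon. Its pyramidal cells in the CA fields and its dentate granule cells use glutamate, and its inhibitory interneurons arise from the ventral telencephalon under the control of homeobox factors such as the Dlx proteins. The cerebellum develops from the hindbrain behind the isthmus. Its cortex is filled with small glutamatergic granule cells, its output comes from the GABAergic Purkinje cells, and Bergmann glia accompany the Purkinje cells. Regional identity is set up by transcription factors during development and is kept in the adult partly through the same factors, and each region's neurons carry their own versions of receptor, channel and synaptic protein families.

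Levels are given as CPM, the count of a gene relative to the total of its library after edgeR's TMM scaling, in the order of libraries 1 to 5 of each region, or as the mean ± SD over these libraries (n = 5). Levels of different genes are set against each other only as CPM per kb of exon length. The log2 difference is hippocampus minus cerebellum, with its standard error (SE) from the edgeR fit. A gene was called at a Benjamini-Hochberg adjusted p under 0.05 in edgeR's quasi-likelihood test, and was past 2-fold where edgeR's glmTreat, which tests against a fold of 2 rather than against no difference, gave an adjusted p under 0.05. The hippocampus libraries held 3255661 to 138963332 assigned reads and the cerebellum libraries 10400540 to 16810250. The correlation of log2 CPM over genes was 0.911 to 0.964 between hippocampus libraries, 0.823 to 0.976 between cerebellum libraries and 0.721 to 0.874 across regions, and the first principal component, with 50.3% of the variance, separated the regions (genes are not independent replicates). Cerebellum sham 1 stood apart on the second component (23.6% of the variance). Its genes of low GC content lay a median of 1.25 log2 units above the median of the other 4 cerebellum libraries, and those of high GC content 0.72 below it (a median of -0.72). Hippocampus sham 1 and 4 had a smaller trend of this kind against their own region, with medians of 0.31 and 0.35 at low GC content and -0.44 and -0.37 at high. On the second component these 2 libraries lay on the side of cerebellum sham 1. Cerebellum sham 2 had 9.22% of reads outside genes, against 2.79% to 3.86% in the other cerebellum libraries. Of the Y-linked genes looked at, all 10 libraries held reads, and Xist, which is expressed in females, had 2 reads in the hippocampus libraries together and 0 in the cerebellum libraries.

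Of 14209 genes tested, 1551 were called higher in the hippocampus and 1541 higher in the cerebellum, 10.9% and 10.8% of the genes tested. Every count of list members called further below stands against these shares. Past 2-fold were 586 (4.12%) and 431 (3.03%). All 5 hippocampus libraries lay above all 5 cerebellum libraries for 1272 genes (8.95%), and the reverse held for 1344 (9.46%). The median log2 difference over all genes tested was -0.11. With the replicate number as a block the calls were 2372 and 2552. Without cerebellum sham 1 they were 2529 and 2462, and without cerebellum sham 1 and 2 together 2093 and 1870.

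The genes furthest towards the hippocampus included regulators and dendritic proteins of the telencephalon. Lhx2, a LIM homeobox factor of the cortical and hippocampal primordium, was at 44, 47.8, 66.3, 80.8 and 73.8 CPM against 0.408, 2.69, 0.301, 0.228 and 0.417 CPM (log2 difference 6.34 ± 0.63; adjusted p 1.85e-05), and the groups did not overlap. Fezf2, a zinc finger factor of corticofugal neurons, was at 12, 15.3, 31.2, 37.4 and 29.1 CPM and, in the cerebellum, at 0 in every library but sham 2, where it reached 1.39 CPM (16 reads). Lhx2 and Fezf2 were thus highest in the same cerebellum library.

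Among the effector genes of this end of the list, Ddn (dendrin, a protein of dendrites) was at 877, 685, 949, 1164 and 877 CPM in the hippocampus and 1.63, 20.2, 2.17, 1.75 and 3.1 CPM in the cerebellum. Icam5 (telencephalin, an adhesion molecule of telencephalic dendrites) was at 253, 262, 432, 260.0 and 401 CPM against 0.245, 9.62, 1.86, 1.14 and 0.834 CPM. Each had its highest cerebellum value in sham 2, and neither overlapped between regions. The log2 difference of Ddn was 7.32 ± 0.80 (adjusted p 4.05e-05). That of Icam5 was 6.91 ± 0.81 (adjusted p 6.94e-05), and an opposite-strand gene shares 30.8% of its exon bases. Trh, which encodes thyrotropin-releasing hormone, averaged 18.9 ± 8.34 CPM in the hippocampus and had 6 reads in all in the cerebellum. Crhbp, the corticotropin-releasing hormone binding protein, averaged 14.9 ± 5.67 CPM against 0.125 ± 0.0945 CPM. Cpne7, a copine, averaged 171 ± 81.3 CPM against 0.958 ± 1.25 CPM. The smallest p-values in this direction belonged to 3 genes with little spread. Lmo3, a LIM-only cofactor, had a log2 difference of 5.34 ± 0.25 (adjusted p 1.17e-07). Pak6, a p21-activated kinase, had one of 4.77 ± 0.23 (adjusted p 1.31e-07). Kcnf1, an electrically silent potassium channel subunit, had one of 6.47 ± 0.33 (adjusted p 1.93e-07). It was at 37.6, 47.8, 35.9, 37.8 and 34.6 CPM against 0.163, 0.52, 0.421, 0.304 and 0.715 CPM, a narrow range in each region.

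The genes furthest towards the cerebellum included homeobox factors and markers of Purkinje and granule cells. Lbx1, a homeobox factor of hindbrain and spinal neurons, had no read in any hippocampus library and 11, 18.5, 16.6, 13.7 and 19.4 CPM in the cerebellum, at least 985-fold higher against 3 reads over the hippocampus libraries together (0.0161 CPM). This floor rests on hippocampus sham 4, the deepest library, and over the other 4 it is 0.104 CPM, which lowers the bound to 152-fold. Cabp2, a calcium-binding protein, likewise had no hippocampus read and 3.27, 9.1, 11, 8.45 and 9.17 CPM, at least 510-fold higher on the same floor and at least 78.9-fold higher without hippocampus sham 4. Tlx3, a homeobox factor, had 3 reads in all in the hippocampus and averaged 11.4 ± 4.42 CPM in the cerebellum, and no fold is given for so few reads. Hes3, a basic helix-loop-helix repressor, averaged 0.0772 ± 0.0721 CPM in the hippocampus and 46.3 ± 15.3 CPM in the cerebellum.

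Ppp1r17, a phosphatase inhibitor of Purkinje cells, had the smallest p-value in this direction. It was at 0.294, 0.124, 0, 0.165 and 0.218 CPM in the hippocampus and 166, 154, 131, 155 and 148 CPM in the cerebellum, where the 5 libraries lay close together (log2 difference -9.88 ± 0.32; adjusted p 1.18e-08). Pcp2, the classical Purkinje cell protein, was at 0.881, 0.746, 0.242, 0.279 and 0.109 CPM against 174, 749, 593, 364 and 445 CPM (log2 difference -10.36 ± 0.59; adjusted p 3.7e-07). Its lowest cerebellum value, in sham 1, was still far above every hippocampus library, and 51.5% of its exon bases are shared with a gene on the opposite strand. Cbln3, a secreted cerebellin of granule cells, was at 2.06, 1.99, 0.726, 0.78 and 0.218 CPM against 1561, 683, 862, 875 and 849.7 CPM. Fat2, a protocadherin of granule cells, averaged 1.03 ± 0.526 CPM against 345 ± 182 CPM. Sham 1 was the highest cerebellum library for Cbln3 and the lowest for Pcp2. Dao, D-amino acid oxidase, which breaks down D-serine, averaged 0.485 ± 0.228 CPM against 279.6 ± 80.4 CPM (log2 difference -9.27 ± 0.38; adjusted p 7.19e-08). Crtam, an adhesion molecule of the immunoglobulin family first described on lymphocytes, averaged 0.371 ± 0.24 CPM against 163 ± 27 CPM. Mybpc3, known as the cardiac myosin-binding protein C, averaged 0.561 ± 0.517 CPM against 209.5 ± 44.6 CPM, and its groups did not overlap (log2 difference -8.87 ± 0.57; adjusted p 8.29e-07).

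On GRCm38, with the gene models of GENCODE M21, the gene bodies of 4 genes from these lists lie at chr2:38339281-38369733 (Lhx2), chr14:12342094-12348189 (Fezf2), chr19:45232684-45235812 (Lbx1) and chr6:56017497-56032689 (Ppp1r17).

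To show the start regions of genes at both ends of this order, the 250 bases before the RefSeq start of 4 of them follow (GRCm38.p6, minus strand, written 5′ to 3′ on that strand, CG dinucleotides in capitals). Gabra5, at chr7:57510060-57510309, and Kcnf1, at chr12:17176889-17177138, were higher in the hippocampus. Gabra6, at chr11:42321073-42321322, and Cbln3, at chr14:55884257-55884506, were higher in the cerebellum. The GENCODE start of Cbln3, at 55884392, lies inside its window.
Gabra5: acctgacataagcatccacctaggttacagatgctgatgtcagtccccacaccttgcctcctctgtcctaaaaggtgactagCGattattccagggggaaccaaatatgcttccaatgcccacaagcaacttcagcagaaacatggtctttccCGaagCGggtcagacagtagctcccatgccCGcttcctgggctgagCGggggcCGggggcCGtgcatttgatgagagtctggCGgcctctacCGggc
Kcnf1: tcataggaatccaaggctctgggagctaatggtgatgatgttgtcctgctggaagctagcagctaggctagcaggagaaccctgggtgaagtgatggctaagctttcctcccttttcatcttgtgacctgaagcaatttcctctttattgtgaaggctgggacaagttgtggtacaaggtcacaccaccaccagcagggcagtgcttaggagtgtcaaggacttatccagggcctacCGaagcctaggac
Gabra6: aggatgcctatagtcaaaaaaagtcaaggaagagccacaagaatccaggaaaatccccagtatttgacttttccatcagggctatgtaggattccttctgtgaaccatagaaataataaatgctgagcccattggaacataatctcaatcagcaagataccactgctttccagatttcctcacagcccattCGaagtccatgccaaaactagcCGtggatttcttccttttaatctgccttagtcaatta
Cbln3: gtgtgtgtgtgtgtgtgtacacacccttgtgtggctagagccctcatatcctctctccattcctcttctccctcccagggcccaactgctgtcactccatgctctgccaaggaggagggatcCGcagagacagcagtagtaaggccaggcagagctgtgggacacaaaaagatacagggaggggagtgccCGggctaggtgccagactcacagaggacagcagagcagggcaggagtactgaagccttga
The Gabra5 window holds 9 CG dinucleotides, that of Kcnf1 1, that of Gabra6 2 and that of Cbln3 2. Over the 13907 windows of the genes tested the mean was 15.9 CG dinucleotides, and 14.9% of windows held fewer than 5. Of the 595 windows of genes past 2-fold higher in the hippocampus 22.9% held fewer than 5, with a mean of 13.7, and of the 407 windows of genes past 2-fold higher in the cerebellum 27.8%, with a mean of 12.7. Windows were found for 420 of 586 and 304 of 431 of these genes. Searched on both strands, the E-box letters CANNTG stood in 63.9% of the hippocampus windows, 65.8% of the cerebellum windows and 58.1% of the windows of all genes tested. The homeodomain core TAATTA stood in 4.54%, 3.44% and 2.39%. The letters TAGGTCA, which ROR receptors bind, stood in 0.672%, 2.46% and 1.5%. These shares are descriptions of letters and carry no test.

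Cell type markers were counted next, to see which neurons and glia the dissected tissue contained. Of 13 cerebellar granule cell markers 12 were called higher in the cerebellum and 0 in the hippocampus, with a median log2 difference of -4.38. Of 18 Purkinje cell markers 16 were called higher in the cerebellum (median -4.16), and of 8 markers of other cerebellar neurons 6 (median -5.05). The markers not called among these were Tiam1, Rora, Foxp2, Lypd6 and Lgi2 (Lypd6 had an adjusted p of 0.00821 with the block). Tiam1, a Rac activator, was at 94.2, 56.7, 68.7, 70.6 and 53.2 CPM in the hippocampus and 258, 76.8, 121, 103 and 96.9 CPM in the cerebellum (adjusted p 0.0512; 0.00375 with the block). It was also called without hippocampus sham 1, without cerebellum sham 2 and without cerebellum sham 1 and 2 together. Foxp2, a forkhead factor of Purkinje cells, was at 7.34, 5.47, 0.967, 1.01 and 2.62 CPM against 6.2, 0.693, 1.02, 1.98 and 0.774 CPM, low and overlapping in both regions. Rora, a nuclear receptor needed by Purkinje cells, was at 13.8, 11.4, 17.9, 11.7 and 18.1 CPM in the hippocampus and 194, 22.1, 14.4, 27.8 and 18.7 CPM in the cerebellum, where sham 1 stood far above the rest. Its log2 difference was -1.92 ± 0.68 (adjusted p 0.0632), and -0.51 without cerebellum sham 1. It was called without cerebellum sham 3 and without cerebellum sham 5. Slc6a5, the glycine transporter of inhibitory terminals, had 8 reads in the hippocampus and 21.4, 4.42, 11.1, 6.09 and 7.09 CPM in the cerebellum.

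The hippocampus had its own markers. Of 8 dentate granule cell markers 6 were called higher in the hippocampus (4 without cerebellum sham 1 and 2) and 1, Plk5, in the cerebellum (median 2.74). C1ql2, a secreted synaptic organiser of mossy fibres, was at 41.4, 14.1, 86.1, 63.5 and 108 CPM against 1.14, 1.39, 2.95, 2.51 and 1.97 CPM, with sham 2 the lowest hippocampus library (log2 difference 4.96 ± 0.53; adjusted p 3.29e-05). Lct, the lactase gene, which also marks dentate granule cells, was at 17.9, 1.62, 30.4, 24.3 and 34.2 CPM against 0.0816, 1.13, 0.963, 0.913 and 0.774 CPM, and sham 2 was again lowest. Prox1, the homeobox factor of dentate granule cells, averaged 20.1 ± 11.6 CPM in the hippocampus and 16.2 ± 11.6 CPM in the cerebellum and was not called (adjusted p 0.732). Of 16 CA pyramidal cell markers 13 were tested, 8 were called higher in the hippocampus and 1 in the cerebellum (2 with the block or without hippocampus sham 4), with a median of 1.34. For the dentate and the CA list alike the cerebellum share is not far from the 10.8% of all genes. Rgs14, a regulator of G protein signalling known for area CA2, was at 63.4, 63, 64.9, 62 and 50.8 CPM against 0.327, 3.03, 0.12, 0.989 and 0.953 CPM. Fibcd1, known for area CA1, was at 92.2, 32.1, 378, 196 and 250.1 CPM against 0.898, 4.16, 4.27, 3.04 and 5.06 CPM and varied far more between hippocampus libraries than Rgs14. Cacng5, an auxiliary AMPA receptor subunit listed for CA2, was higher in the cerebellum, 18.4 ± 5.01 CPM against 60.2 ± 9.64 CPM (log2 difference -1.71 ± 0.23; adjusted p 0.000162). All 13 forebrain interneuron markers were called higher in the hippocampus (median 5.78, also with members at 0 in the cerebellum at their bound), and the summed level of the list was 183 to 365 CPM in the hippocampus and 8.73 to 53.1 CPM in the cerebellum, where sham 2 was highest. Dlx5, a homeobox factor of this lineage, was at 4.11, 8.09, 1.45, 2.2 and 1.53 CPM against 1 read in the cerebellum libraries together. Its highest values were in hippocampus sham 1 and 2, which were also highest for striatal markers (4370 and 6188 CPM summed). Without these libraries 12 members of the interneuron list were called.

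**Figure D1:**
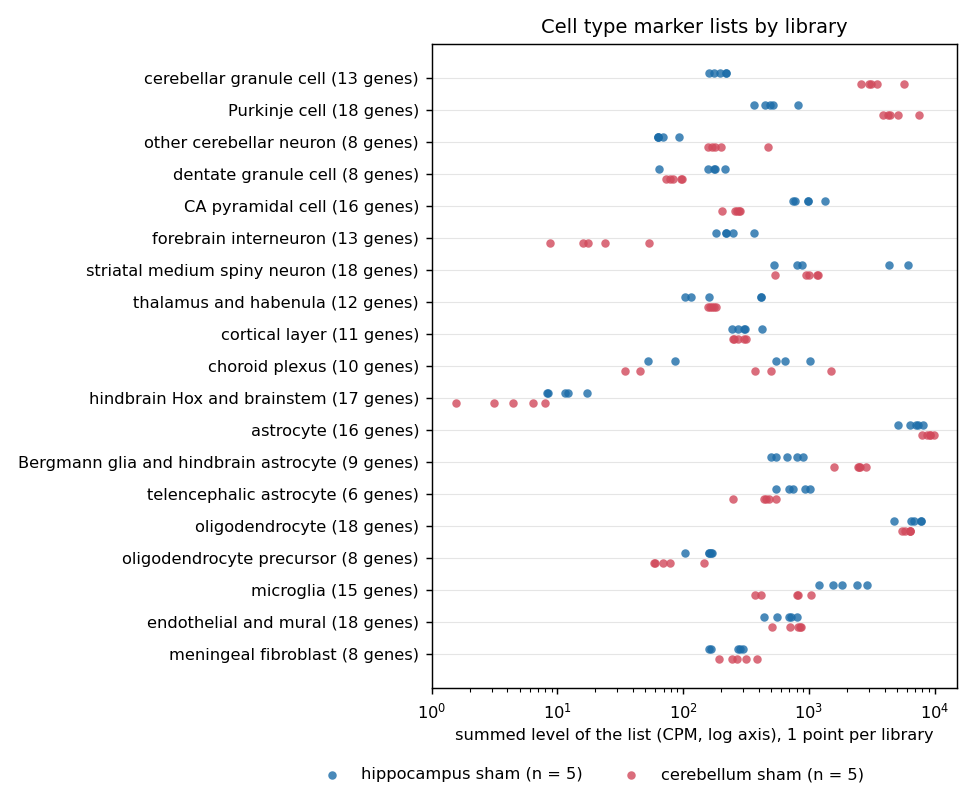
Summed level of each cell type marker list in each library (horizontal axis, CPM, logarithmic), with hippocampus libraries in blue and cerebellum libraries in red. The granule and Purkinje cell lists lie further right in all 5 cerebellum libraries and the CA pyramidal and forebrain interneuron lists in all 5 hippocampus libraries, while the striatal list is high in 2 hippocampus libraries (4370 and 6188 CPM).

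Markers of tissue that borders the dissected regions were counted as well. The summed level of 18 striatal markers was 4370 and 6188 CPM in hippocampus sham 1 and 2, 531 to 884 CPM in hippocampus sham 3 to 5 and 534 to 1174 CPM in the cerebellum. Of the 14 tested, 8 were called higher in the hippocampus (median 2.73). Without hippocampus sham 1 and 2 the calls were 4 higher in the hippocampus and 3 higher in the cerebellum, and the median was 0.38. Without cerebellum sham 1 and 2 they were 3 and 0. The part of striatal tissue in these values was not tested. Drd1, the D1 dopamine receptor, was at 44, 45, 3.51, 3.02 and 3.28 CPM against 0.408, 0.867, 0, 0.152 and 0.119 CPM. Its log2 difference was 6.06 ± 1.16, and 3.47 without hippocampus sham 1 and 2. Ppp1r1b, the dopamine-regulated phosphatase inhibitor DARPP-32, was at 1036, 1706, 179.6, 86.3 and 112 CPM against 188, 601, 599.5, 482 and 493 CPM. Both were highest in the same 2 hippocampus libraries, and Ppp1r1b lay below the cerebellum level in the other 3.

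The 12 thalamus and habenula markers summed to 413 CPM in each of hippocampus sham 3 and 5 and to 103 to 161 CPM in the other 3, against 158 to 184 CPM in the cerebellum. Of the 10 tested 4 were called higher in the hippocampus and 1 in the cerebellum (0 without hippocampus sham 1 and 2). The latter share is near the 10.8% of all genes. Tnnt1, a troponin gene, was at 24.9, 8.71, 65.1, 8.13 and 59.6 CPM against 0.245, 2.08, 0.963, 0.533 and 0.596 CPM. Prkcd, a protein kinase C of thalamic relay neurons, was at 57.5, 28.2, 209, 49.8 and 225 CPM against 117, 102, 128, 110.4 and 131 CPM with an adjusted p of 0.958. Hippocampus sham 3 and 5 were the highest of their region for both, and the part of thalamic tissue was not tested. Choroid plexus markers summed to 52.5 to 1012 CPM in the hippocampus and 34.4 to 1501 CPM in the cerebellum, with 1 of 10 called higher in the cerebellum, a share near the 10.8% of all genes, and 0 in the hippocampus (1 with the block or without cerebellum sham 1). Ttr, transthyretin, was at 413, 62.6, 379.9, 844 and 29.1 CPM and 412, 257, 14.7, 1269 and 6.67 CPM, with a spread inside each region far larger than the difference between them (adjusted p 0.933). Of 11 cortical layer markers 5 were called higher in the hippocampus and 3 in the cerebellum, against 10.9% and 10.8% of all genes. Lamp5, a membrane protein of upper cortical layers and interneurons, was at 52.8, 172, 64.9, 43.5 and 45.5 CPM against 2.86, 11.8, 1.75, 2.51 and 2.14 CPM, highest in sham 2 of each region. Nxph4, a neurexophilin, was higher in the cerebellum (10.7 ± 3.6 CPM against 41.7 ± 14.1 CPM; adjusted p 0.000823). Of 17 Hox and brainstem genes only Slc17a6 passed the filter on low counts, and Hoxd3 and Hoxd4 had no read in any library.

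Of 29 telencephalic factors tested, 21 were called higher in the hippocampus and 2 in the cerebellum (Neurod2 and Id2), with a median of 4.73. The call of Id2 was lost in 6 of the 10 fits that leave out 1 library. All 21 were past 2-fold and had libraries that did not overlap, against 4.12% and 8.95% of all genes tested. Of 30 cerebellar factors tested, 28 were called higher in the cerebellum and 0 in the hippocampus, with a median of -4.40, and Rora and Foxp2 were not called. Gbx2, a homeobox factor of the midbrain-hindbrain boundary, is also listed and did not pass the filter on low counts, with 0.539 to 2.42 CPM in the hippocampus and 0 to 0.152 CPM in the cerebellum. It passed the filter and was called higher in the hippocampus without hippocampus sham 4 and without any 1 of the cerebellum libraries, with a log2 difference of 4.02 to 4.77, and likewise with no filter (4.36). Emx2, a homeobox factor of the hippocampal primordium, was at 9.1, 4.11, 6.65, 10.2 and 5.03 CPM against 1 read in the cerebellum libraries together. Uncx, a homeobox factor, averaged 0.365 ± 0.414 CPM in the hippocampus and was at 27.9, 28.9, 34.1, 42.2 and 50.1 CPM in the cerebellum (log2 difference -7.37 ± 0.67; adjusted p 1.04e-05). Tfap2b, an AP-2 factor of cerebellar inhibitory neurons, was at 0.294, 0, 0.121, 0.444 and 0.655 CPM against 58.5, 11.3, 17.3, 13.9 and 14.9 CPM. Skor2, a corepressor of Purkinje cells, had 1 read in the hippocampus libraries together and 17.2, 12.8, 12.3, 9.59 and 13.8 CPM in the cerebellum.

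Related factors of the Neurod family went opposite ways. Neurod6, of pyramidal cells, was at 55.2, 13.8, 47.5, 74.8 and 41.7 CPM against 2.61, 1.73, 1.44, 1.83 and 1.19 CPM (log2 difference 4.73 ± 0.43; adjusted p 1.11e-05). Neurod1, of cerebellar granule cells, was at 4.99, 1.74, 3.51, 5.67 and 4.04 CPM against 348, 45.3, 64.7, 63.1 and 58.8 CPM (log2 difference -4.84 ± 0.65; adjusted p 0.000197). Sham 2 was the lowest hippocampus library for both, and cerebellum sham 1 stood far above the other libraries for Neurod1. Per exon length, Neurod6 stood at 21.7 CPM per kb in the hippocampus and 0.819 in the cerebellum, and Neurod1 at 1.46 and 42.5. Zbtb18, a zinc finger repressor listed with the telencephalic factors, was at 63.1, 18, 41, 91.6 and 54.5 CPM in the hippocampus and 461, 37.2, 60.6, 90.3 and 54.2 CPM in the cerebellum, and was not called (adjusted p 0.175). Its log2 difference was -1.39 ± 0.67, and -0.17 without cerebellum sham 1. Cux2, a factor of upper cortical layers, averaged 32.6 ± 6.89 CPM and 38.2 ± 6.57 CPM (adjusted p 0.453).

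**Figure D2:**
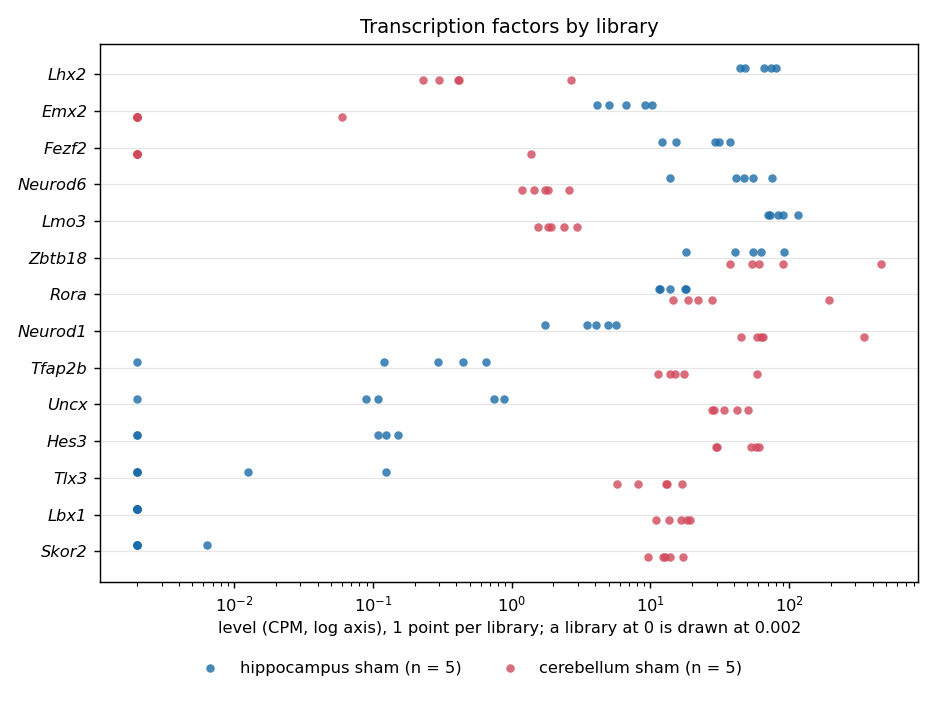
Level of 14 transcription factors and cofactors in each library (horizontal axis, CPM, logarithmic; a library at 0 is drawn at 0.002), hippocampus in blue and cerebellum in red. From Lhx2 to Lmo3 the hippocampus libraries lie to the right, from Neurod1 to Skor2 the cerebellum libraries do, and Zbtb18 and Rora overlap between regions, with cerebellum sham 1 far to the right at 461 and 194 CPM.

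Glutamate receptor subunits were called in both directions. Of 17 ionotropic subunits tested 4 were called higher in the hippocampus (7 without cerebellum sham 1) and 3 in the cerebellum, with a median of 0.24. The cerebellum share is not far from the 10.8% of all genes. Grin2b, the NMDA receptor subunit 2B, was at 71.6, 107, 128, 107 and 101 CPM against 11.3, 12.6, 2.53, 2.28 and 2.32 CPM (log2 difference 4.07 ± 0.54; adjusted p 0.000178). Cerebellum sham 1 and 2 were above the other 3 cerebellum libraries and still far below every hippocampus library. Grin2c, the 2C subunit typical of granule cells, was at 75.5, 99.2, 145, 71.9 and 134 CPM against 210.5, 275, 390.3, 238 and 263 CPM (log2 difference -1.39 ± 0.25; adjusted p 0.00146). Per exon length Grin2b stood at 4.14 CPM per kb in the hippocampus and 0.25 in the cerebellum, and Grin2c at 20.9 and 54.7. Gria4, an AMPA receptor subunit of Bergmann glia and granule cells, was at 10.6, 7.59, 10.8, 12.8 and 13 CPM against 468, 52.6, 92.7, 114 and 103 CPM (log2 difference -3.91 ± 0.56; adjusted p 0.000315). Gria1, a main AMPA receptor subunit of hippocampal synapses, averaged 467 ± 156 CPM and 656 ± 132 CPM and was not called (adjusted p 0.208). Grik5, a kainate receptor subunit, averaged 468 ± 146 CPM against 143 ± 37.1 CPM (adjusted p 0.000481).

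Of 13 auxiliary subunits of AMPA and kainate receptors 6 were called higher in the hippocampus and 2 in the cerebellum, the latter not far from the 10.8% of all genes. Neto1, an auxiliary kainate receptor subunit, was at 39.9, 22.1, 24.6, 49.5 and 34.2 CPM against 2.69, 0.867, 0.963, 0.761 and 0.834 CPM (log2 difference 4.81 ± 0.42; adjusted p 7.77e-06). Cnih3, a cornichon that accompanies AMPA receptors, averaged 80.8 ± 36.4 CPM against 5.42 ± 2.29 CPM (log2 difference 3.90 ± 0.41; adjusted p 2.78e-05). Among 7 metabotropic receptors 3 were called higher in the hippocampus and 2 in the cerebellum. Grm5, a group I receptor coupled to phospholipase C, was at 33.8, 26.9, 26.7, 48.2 and 31.2 CPM against 4.41, 0.52, 0.662, 0.913 and 0.596 CPM (log2 difference 4.58 ± 0.59; adjusted p 0.000141). Cerebellum sham 1 was its highest cerebellum library, and the groups did not overlap. Grm4, the presynaptic receptor of parallel fibres, averaged 41.4 ± 17.2 CPM against 614 ± 157 CPM (log2 difference -3.90 ± 0.36; adjusted p 1.19e-05).

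GABA-A receptors are pentamers whose alpha subunit sets much of their pharmacology, and several subunit genes lie next to each other in clusters. Of 17 GABA and glycine receptor genes tested 4 were called higher in the hippocampus (7 with the block, 8 without cerebellum sham 1 and 2 without hippocampus sham 1 and 2) and 2 in the cerebellum, where the share is near the 10.8% of all genes. Gabra5, of extrasynaptic receptors in the hippocampus and with 9 CG dinucleotides in its start window, was at 63.1, 9.95, 32, 61 and 35.9 CPM against 0.653, 1.04, 0.18, 0.152 and 0.119 CPM (log2 difference 6.63 ± 0.69; adjusted p 2.77e-05). Its lowest hippocampus value was that of sham 2. Gabra6, of cerebellar granule cells and with 2 CG dinucleotides in its window, was at 0.294, 0.498, 0, 0.133 and 0 CPM against 409, 93.3, 105, 192 and 143 CPM (log2 difference -10.27 ± 0.72; adjusted p 1.64e-06). Gabrd, the delta subunit that joins alpha 6 in granule cells and alpha 4 in the dentate gyrus, was at 66.3, 161, 106, 35.3 and 95.3 CPM against 275, 465, 517, 358 and 422 CPM (log2 difference -2.14 ± 0.35; adjusted p 0.000861). Gabra3 averaged 26.4 ± 2.27 CPM against 6.5 ± 3.88 CPM (log2 difference 2.02 ± 0.35; adjusted p 0.00112).

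Gabrb2, a neighbour of Gabra6 on chromosome 11, was not called, with means of 6.72 and 31.6 CPM (log2 difference -2.19 ± 0.89; adjusted p 0.105), and a log2 difference of -0.20 without cerebellum sham 1. The hippocampus mean is given first. On chromosome 7, next to Gabra5, Gabrg3 was called higher in the hippocampus with means of 7.11 and 1.38 CPM (log2 difference 2.35 ± 0.54; adjusted p 0.00748), a call lost without hippocampus sham 1 and 2. None of the 4 subunits on chromosome 5, Gabra2, Gabra4, Gabrb1 and Gabrg1, was called in edgeR's test. Gabra4 and Gabrb1 were called towards the hippocampus with the block (adjusted p 0.0115 and 0.00819). Without cerebellum sham 1 there were calls towards the hippocampus for Gabra2 (log2 difference 1.57), Gabra4 (1.80) and Gabrb1 (1.64). Per exon length Gabra5 stood at 13.6 CPM per kb in the hippocampus and 0.144 in the cerebellum, and Gabra6 at 0.0743 and 75.7. The GABA-B receptor gene Gabbr1 had means of 1137 ± 172 CPM and 1172 ± 244 CPM (log2 difference -0.04 ± 0.19; adjusted p 0.899).

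Of 31 receptors for monoamines and acetylcholine tested 22 were called higher in the hippocampus and 3 in the cerebellum, against 10.9% and 10.8% of all genes, with a median of 2.06. The cerebellum share is near that of all genes. Htr3a, the ion channel among serotonin receptors, was at 2.94, 5.6, 10.8, 8.37 and 8.19 CPM against 0.163, 0, 0.0602, 0 and 0.179 CPM (log2 difference 6.35 ± 0.65; adjusted p 2.33e-05). Htr1a, the inhibitory serotonin receptor of hippocampal pyramidal cells, was at 11.4, 5.35, 12, 15.7 and 7.43 CPM against 0.0816, 0.52, 0, 0 and 0.119 CPM (log2 difference 6.24 ± 0.74; adjusted p 7.73e-05). The cerebellum values rested on 6 reads of Htr3a and 9 of Htr1a. Adra2a, an alpha-2 adrenergic receptor, averaged 20.4 ± 6.0 CPM and 17.1 ± 2.47 CPM and was not called (adjusted p 0.466). The list also holds Drd1 and Drd2, which were high in the 2 hippocampus libraries rich in striatal markers. Without these libraries 19 of the 31 were called higher in the hippocampus and 0 in the cerebellum. Drd2 had a log2 difference of 3.87 ± 1.05 (adjusted p 0.0195), which was 0.54 without hippocampus sham 1 and 2 (adjusted p 0.533). It also lost its call with the block (log2 difference 2.39; adjusted p 0.0767), without hippocampus sham 2, and without cerebellum sham 1 or sham 4.

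Of 24 peptide, opioid, cannabinoid and purine receptors 14 were called higher in the hippocampus and 2 in the cerebellum (5 with the block and 1 without hippocampus sham 2, 4 or 5), the latter not far from the 10.8% of all genes, with a median of 2.02. The 14 include Adora2a, which is also in the striatal list, and the count was 12 without hippocampus sham 1 and 2. Ntsr1, a neurotensin receptor, was at 9.39, 9.83, 14.4, 9.79 and 12.7 CPM against 0.163, 0.867, 0.0602, 0.0761 and 0 CPM (adjusted p 0.000125). Npy2r, a presynaptic neuropeptide Y receptor, averaged 9.9 ± 4.28 CPM against 0.229 ± 0.178 CPM (adjusted p 6.95e-05). Crhr1, a receptor of corticotropin-releasing hormone, went the other way, with 8.22, 17.3, 21.6, 9.81 and 11.5 CPM against 48.4, 59.9, 74.4, 53.2 and 56.9 CPM and no overlap (log2 difference -2.09 ± 0.27; adjusted p 0.000142). Adora1, the inhibitory adenosine receptor, shares 20.1% of its exon bases with an opposite-strand gene and averaged 205 ± 39.2 CPM and 268 ± 23.3 CPM (adjusted p 0.124; 0.0257 with the block).

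**Figure D3:**
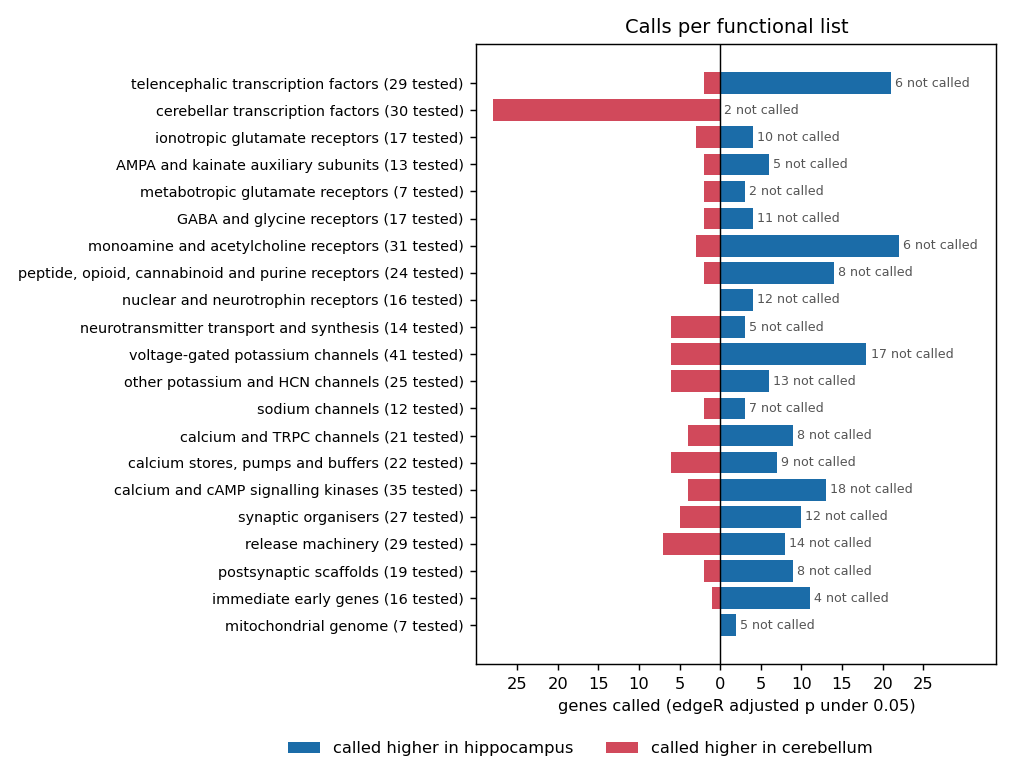
Number of genes called in each list of receptors, channels, synaptic proteins and other functions (horizontal axis, genes), to the right for higher in hippocampus and to the left for higher in cerebellum. The 2 transcription factor lists point to opposite sides with 21 and 28 calls. Most calls lie on the hippocampus side for the monoamine receptors (22 against 3) and the peptide receptors (14 against 2). The same holds for the immediate early (activity-regulated) genes (11 against 1) and the postsynaptic scaffolds (9 against 2). The remaining lists hold calls in both directions or few calls.

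Potassium channel subunits were called in both directions. Of 41 genes of voltage-gated potassium channels and their partners 18 were called higher in the hippocampus and 6 in the cerebellum (10 with the block), with a median of 0.67. The cerebellum share is not far from the 10.8% of all genes. Kcnv1, an electrically silent subunit, was at 13.5, 16.6, 17.9, 22.3 and 14.6 CPM against 0, 0.26, 0, 0.0761 and 0.119 CPM (log2 difference 7.54 ± 0.57; adjusted p 2.71e-06). Kcng4, another silent subunit, was at 10.9, 9.08, 23, 14.1 and 27.8 CPM against 293, 395, 458, 367 and 512 CPM (log2 difference -4.57 ± 0.34; adjusted p 2.49e-06). Both belong to the silent subunits, which open no channel alone and modify other channel subunits. Of the 8 silent subunits tested 7 were called higher in the hippocampus and 1, Kcng4, in the cerebellum, a tally made after the values were seen. It stands against 18 and 6 of the 41 in the whole list, and 10.9% and 10.8% of all genes. A trait of silent subunits was not tested. Kcnc1, a gene of the fast Kv3 channels, averaged 112 ± 14 CPM against 463 ± 93.1 CPM (log2 difference -2.05 ± 0.18; adjusted p 7.13e-06). Kcnc2, the Kv3 gene of forebrain interneurons, went the other way with 10.3, 8.34, 18.9, 22.7 and 23.5 CPM against 2.2, 1.39, 1.44, 1.07 and 0.893 CPM (log2 difference 3.59 ± 0.39; adjusted p 3.55e-05). Per exon length Kcnc1 stood at 11.8 CPM per kb in the hippocampus and 49.0 in the cerebellum, and Kcnc2 at 2.34 and 0.196. Of the Shaker-type genes, Kcna4 averaged 11.1 ± 3.43 CPM against 1.61 ± 1.1 CPM (adjusted p 0.000827). Kcna1 overlapped between regions and was not called (adjusted p 0.235).

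Of 25 other potassium and HCN channels 6 were called in each direction, against 10.9% and 10.8% of all genes. Kcnj4, an inward rectifier of forebrain neurons, was at 144, 264, 148, 91.7 and 151 CPM against 1.39, 11, 1.8, 1.29 and 1.55 CPM (log2 difference 5.58 ± 0.67; adjusted p 8.48e-05), with the highest cerebellum value in sham 2. Kcnj12, a related inward rectifier, was at 7.93, 8.46, 9.31, 6.15 and 10.9 CPM against 71.3, 59.5, 69.7, 69.1 and 72.9 CPM (log2 difference -3.01 ± 0.19; adjusted p 7.13e-07). Kcnk3, the leak channel TASK-1, averaged 26.6 ± 8.39 CPM against 181 ± 23.4 CPM (adjusted p 6.37e-06). Hcn2, a pacemaker channel, averaged 589 ± 207 CPM and 579 ± 163 CPM, a difference smaller than the spread (log2 difference 0.02 ± 0.28). Of 12 sodium channel genes 3 were called higher in the hippocampus (6 without cerebellum sham 1) and 2 in the cerebellum, the latter not far from the 10.8% of all genes. Scn3b, an auxiliary sodium channel subunit, was at 102, 88.2, 131, 155 and 128 CPM against 1.14, 4.07, 3.49, 2.97 and 2.86 CPM (log2 difference 5.37 ± 0.33; adjusted p 5.43e-07). Fgf13, an intracellular sodium channel partner, averaged 104 ± 27.5 CPM against 13.9 ± 2.5 CPM (adjusted p 3.62e-06).

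Among calcium channels, the T-type genes that open at low voltage were divided between the regions. Of 21 calcium and TRPC channel genes 9 were called higher in the hippocampus and 4 in the cerebellum, against 10.9% and 10.8% of all genes. Cacna1h, a T-type channel, was at 57.2, 63.1, 72.2, 59.9 and 58.9 CPM against 4.08, 5.81, 7.34, 4.87 and 4.35 CPM (log2 difference 3.56 ± 0.21; adjusted p 3.98e-07). Cacna1g, another T-type channel, was at 25.5, 37.6, 69.9, 30.2 and 47.6 CPM against 293, 227, 299, 187 and 244 CPM (log2 difference -2.57 ± 0.28; adjusted p 3.55e-05). Cacna1i, the remaining T-type gene, averaged 67.2 ± 20.4 CPM and 83.9 ± 15.2 CPM and was not called (adjusted p 0.347). Of the 3 T-type genes 1 was thus called in each direction. Trpc4 averaged 16.6 ± 8.2 CPM against 1.55 ± 0.422 CPM (adjusted p 0.000124).

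Calcium buffers and sensors also differed. Of 22 genes of calcium stores, pumps and buffers 7 were called higher in the hippocampus and 6 in the cerebellum (12 with the block). The shares over all genes were 10.9% and 10.8%. Pvalb, parvalbumin, a buffer of fast-firing inhibitory neurons, was at 88.1, 157, 164, 70.4 and 126 CPM against 852, 5131, 3100, 2244 and 2348 CPM (log2 difference -4.50 ± 0.46; adjusted p 2.52e-05). Within the cerebellum sham 1 was lowest and sham 2 highest. Atp2a3, a calcium pump of the endoplasmic reticulum, averaged 21.4 ± 3.88 CPM against 310.5 ± 56 CPM (log2 difference -3.85 ± 0.20; adjusted p 2.26e-07). Its relative Atp2a2 averaged 533 ± 106 CPM and 839 ± 311 CPM (adjusted p 0.0852; 0.0239 with the block). Hpca, hippocalcin, was at 1171, 1236, 1333, 1377 and 1119 CPM against 107, 167, 182, 171 and 164 CPM (log2 difference 2.98 ± 0.19; adjusted p 6.35e-07). Hpcal4, its relative, averaged 670.1 ± 136 CPM against 49.5 ± 10.2 CPM (log2 difference 3.76 ± 0.21; adjusted p 3.7e-07).

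Of 35 kinases, cyclases and phosphodiesterases of calcium and cAMP signalling 13 were called higher in the hippocampus and 4 in the cerebellum, the latter a share near the 10.8% of all genes. The hippocampus count was 10 without hippocampus sham 1 and 2 and 18 without cerebellum sham 1. The 13 include Pde1b and Adcy5, which are also in the striatal list. Camk2a, the alpha subunit of the calcium- and calmodulin-dependent kinase of glutamatergic synapses, was at 2868, 2237, 3476, 3266 and 2166 CPM against 120.2, 169, 136, 85 and 129.9 CPM (log2 difference 4.45 ± 0.25; adjusted p 3.7e-07). Its partner subunit Camk2b was at 885, 1059, 1033, 1062 and 893 CPM and 898, 851, 1087, 905 and 988 CPM, which overlapped (log2 difference 0.06 ± 0.15; adjusted p 0.813). Per exon length Camk2a stood at 375 CPM per kb and Camk2b at 108 in the hippocampus, and at 17.1 and 104 in the cerebellum, so that the order of the subunits was reversed. Camkv, a kinase-like protein of synapses, averaged 920.1 ± 121 CPM against 26.8 ± 12 CPM (log2 difference 5.10 ± 0.35; adjusted p 1.31e-06). Nrgn, neurogranin, which binds calmodulin in forebrain dendrites, was at 981, 2171, 1598, 1272 and 1203 CPM against 7.26, 169, 12.1, 12.1 and 22.1 CPM, with cerebellum sham 2 far above the other cerebellum libraries (log2 difference 5.02 ± 0.89; adjusted p 0.00142). Adcy1, a calcium-stimulated adenylyl cyclase, was at 227, 172, 287, 360.1 and 227 CPM against 2383, 512, 926, 955 and 938 CPM (log2 difference -2.17 ± 0.38; adjusted p 0.00125). Pde5a, a cGMP phosphodiesterase, averaged 2.99 ± 0.782 CPM against 30.4 ± 21.2 CPM (log2 difference -3.31 ± 0.42; adjusted p 0.000117).

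At the synapse, secreted organisers of the C1q family were called in both directions. Of 27 synaptic organisers 10 were called higher in the hippocampus (16 without cerebellum sham 1) and 5 in the cerebellum (2 without hippocampus sham 1, cerebellum sham 3 or cerebellum sham 5, and 3 without hippocampus sham 2 or 4 or cerebellum sham 4). Cbln1, the cerebellin of parallel fibres, was at 14.7, 9.46, 12.4, 9.44 and 11.9 CPM against 1027, 1543, 1790, 1367 and 1673 CPM (log2 difference -7.01 ± 0.26; adjusted p 2.37e-08). Cbln4 was at 8.22, 10.1, 11.5, 10.4 and 9.07 CPM against 0.49, 1.3, 0.782, 1.22 and 0.596 CPM (log2 difference 3.50 ± 0.33; adjusted p 1.21e-05). Cbln2 averaged 4.61 ± 1.39 CPM against 0.228 ± 0.292 CPM (adjusted p 0.000824). Cbln1 and Cbln3 therefore stood on the cerebellum side and Cbln2 and Cbln4 on the hippocampus side. C1ql1, the climbing fibre organiser, averaged 39.2 ± 13.5 CPM against 16.4 ± 5.92 CPM and was higher in the hippocampus (log2 difference 1.25 ± 0.32; adjusted p 0.0143).

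Of 29 genes of the release machinery 8 were called higher in the hippocampus and 7 in the cerebellum, with a median of 0.07. Of all genes 10.9% and 10.8% were called. Stx1a, a SNARE protein of the plasma membrane, was at 79.3, 210.1, 169, 105 and 142 CPM against 1.22, 14, 4.09, 1.83 and 3.1 CPM (log2 difference 4.87 ± 0.63; adjusted p 0.000141), again with cerebellum sham 2 the highest of its region. The calcium sensors of fast release went opposite ways. Syt1 averaged 638 ± 167 CPM against 281 ± 152 CPM, with cerebellum sham 1 inside the hippocampus range (log2 difference 1.18 ± 0.32; adjusted p 0.0187), and was not called without cerebellum sham 4 or without cerebellum sham 5. Syt2 was at 62.5, 76.6, 45.2, 28.6 and 28.3 CPM against 801, 572, 671, 509 and 549 CPM (log2 difference -3.69 ± 0.31; adjusted p 6.56e-06). Per exon length Syt1 stood at 76.6 CPM per kb in the hippocampus and 33.8 in the cerebellum, and Syt2 at 6.32 and 81.2. Vamp1, a vesicle SNARE of fast synapses, averaged 148 ± 51.1 CPM against 370.1 ± 76.8 CPM (log2 difference -1.32 ± 0.25; adjusted p 0.00243). Vamp2, the widespread vesicle SNARE, averaged 1803 ± 447 CPM and 1270 ± 223 CPM (adjusted p 0.122; 0.00885 with the block, and also called without hippocampus sham 1). The complexins Cplx1 and Cplx2, which clamp the SNARE complex, were not called (adjusted p 0.248 and 0.651). Syt5 averaged 269.7 ± 58.7 CPM against 19.1 ± 9.08 CPM (adjusted p 1.23e-05).

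Of 19 postsynaptic scaffolds 9 were called higher in the hippocampus and 2 in the cerebellum (1 without hippocampus sham 1 and 2), the latter a share near the 10.8% of all genes. Dlgap2, a scaffold of the postsynaptic density, was at 39, 19.9, 29.99, 25.7 and 17.1 CPM against 1.55, 1.56, 0.842, 0.0761 and 0.655 CPM (adjusted p 4.52e-05). Homer3, which links metabotropic receptors to calcium stores in Purkinje cells, shares 25.4% of its exon bases with an opposite-strand gene and averaged 20.8 ± 7.03 CPM against 234 ± 35 CPM (log2 difference -3.50 ± 0.28; adjusted p 4.78e-06). Homer1, its forebrain relative, was at 29.9, 23.3, 11.5, 23 and 11.4 CPM against 26.9, 3.55, 1.86, 4.87 and 2.14 CPM. It overlapped only through cerebellum sham 1 and was not called (adjusted p 0.203; 0.00375 with the block). Without cerebellum sham 1 its log2 difference went from 1.33 ± 0.69 to 2.67 and was called.

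Of 14 genes of neurotransmitter transport and synthesis 3 were called higher in the hippocampus (5 with the block or without cerebellum sham 1) and 6 in the cerebellum. Slc1a6, the glutamate transporter of Purkinje cells, was at 17, 24.8, 33.4, 15.8 and 34.1 CPM against 204, 535, 623, 337 and 466 CPM (log2 difference -4.11 ± 0.36; adjusted p 7.53e-06). Slc1a1, the neuronal transporter EAAC1, averaged 50.3 ± 6.2 CPM against 14 ± 3.17 CPM (adjusted p 3e-05), and 31.9% of its exon bases are shared with an opposite-strand gene. The vesicular transporter Slc17a7 was at 1264, 1897, 4762, 2576 and 3539 CPM and 976, 1393, 2012, 1457 and 1779 CPM, not called at an adjusted p of 0.0838 but called with the block (0.00473) and without hippocampus sham 1, its lowest hippocampus library. Slc17a6, the vesicular transporter of thalamus and brainstem, averaged 8.4 ± 2.73 CPM and 2.74 ± 2.21 CPM at an adjusted p of 0.0461, a call lost when any of 8 of the 10 libraries was left out.

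**Figure D4:**
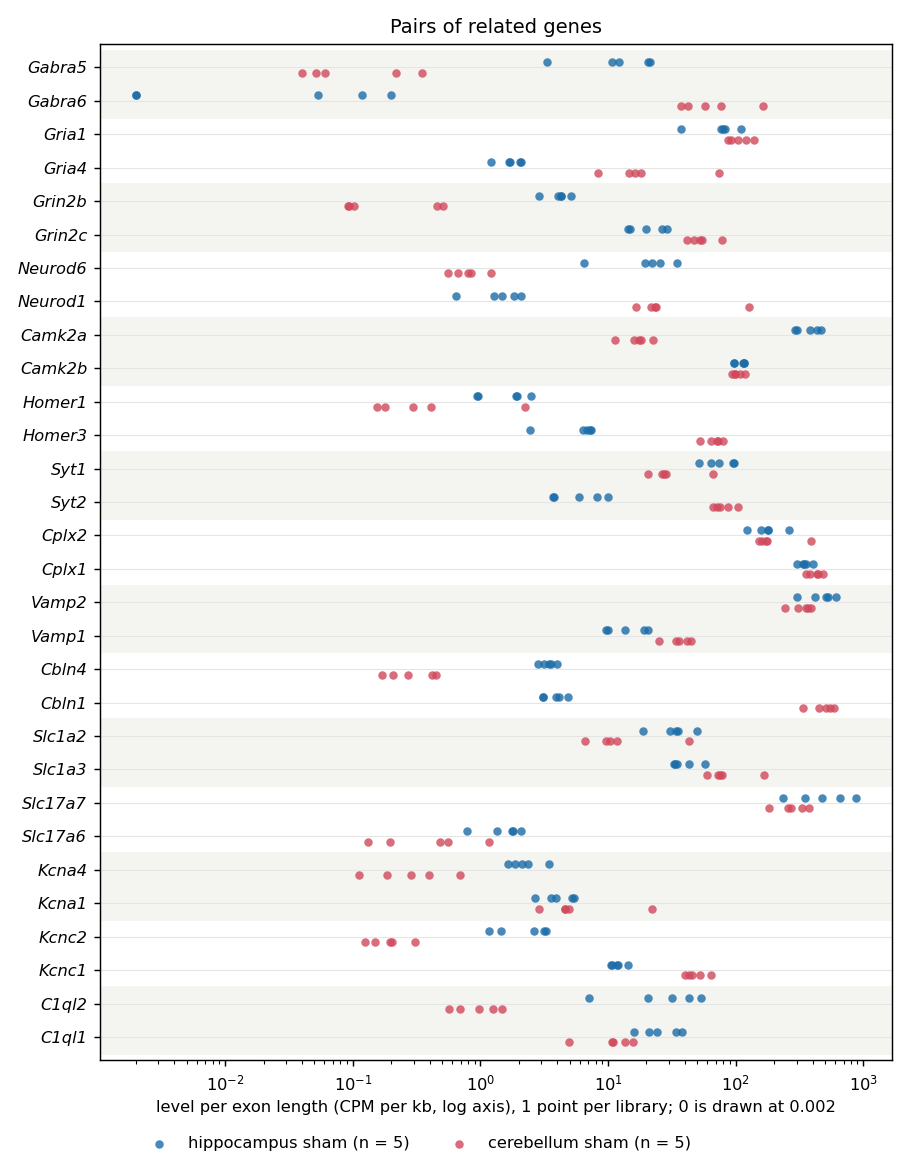
Level per exon length (horizontal axis, CPM per kb, logarithmic; 0 is drawn at 0.002) of 15 pairs of related genes in each library, hippocampus in blue and cerebellum in red, with alternate pairs shaded. Pairs such as Gabra5 and Gabra6 or Neurod6 and Neurod1 change sides between regions, while Camk2b, Cplx1 and Cplx2 overlap.

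Of 16 activity-regulated genes 11 were called higher in the hippocampus and 1 in the cerebellum (2 without cerebellum sham 1 or with the block), with a median of 1.45. The shares over all genes were 10.9% and 10.8%. Egr3, a zinc finger factor, was at 63.1, 52.6, 45.7, 46.9 and 29.9 CPM against 0, 2.77, 0.241, 0 and 0.536 CPM (log2 difference 6.12 ± 0.87; adjusted p 0.000287). Fosb averaged 12.2 ± 2.51 CPM against 1.03 ± 0.315 CPM (adjusted p 6.17e-06). Ier2 was higher in the cerebellum, with 4.7, 9.33, 10.4, 8.46 and 17.3 CPM against 12.3, 38.6, 50.4, 60.1 and 67.6 CPM, and the lowest cerebellum value, of sham 1, lay inside the hippocampus range (adjusted p 0.00325). Jun averaged 51.6 ± 15.2 CPM and 46 ± 13.2 CPM (adjusted p 0.698). Of 16 nuclear and neurotrophin receptors 4 were called higher in the hippocampus (8 with the block or without cerebellum sham 1, and 2 without any of hippocampus sham 3 to 5 or cerebellum sham 3 to 5). In the cerebellum the count was 0 in edgeR's test (2 without cerebellum sham 1 or sham 5, and 1 without hippocampus sham 1 or any of cerebellum sham 2 to 4). Nr4a2, an orphan nuclear receptor, averaged 12.6 ± 4.65 CPM against 2.84 ± 0.943 CPM (adjusted p 0.000802). Rxrg, a retinoid X receptor, was at 32, 75.3, 7.25, 8.91 and 13 CPM against 0.571, 1.73, 1.5, 0.533 and 1.61 CPM, highest in the 2 hippocampus libraries rich in striatal markers (adjusted p 0.000725).

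Glial markers were counted in the same way. Of 9 markers of Bergmann glia and hindbrain astrocytes 6 were called higher in the cerebellum and 1, the GABA transporter Slc6a11, in the hippocampus (median -2.29). The latter share is near the 10.9% of all genes. Gdf10, a growth factor of Bergmann glia, was at 10.3, 10.3, 15.5, 9.93 and 10.7 CPM against 212, 163, 216, 174 and 183 CPM, with little spread in either region (log2 difference -4.06 ± 0.19; adjusted p 1.17e-07). A2m, alpha-2-macroglobulin, averaged 19.2 ± 9.31 CPM against 156 ± 19.8 CPM (adjusted p 2.18e-05). Of 16 general astrocyte markers 1 was called higher in the hippocampus (4 with the block and 2 without cerebellum sham 1) and 6 in the cerebellum, with a median of -0.58. The former share is near the 10.9% of all genes, and it was 0 without hippocampus sham 3 or 4 or cerebellum sham 2 or 5. S100b, a calcium-binding protein of astrocytes, was at 57.8, 95.2, 76.5, 61.4 and 121 CPM against 316, 394, 265, 294 and 244 CPM (log2 difference -1.88 ± 0.23; adjusted p 0.000103). Slc1a3, the glutamate transporter GLAST, averaged 344 ± 89.1 CPM against 773 ± 373 CPM (log2 difference -1.17 ± 0.29; adjusted p 0.013), and lost its call without hippocampus sham 1 and 2 (adjusted p 0.076). Slc1a2, the transporter GLT-1, averaged 444 ± 147 CPM and 214 ± 199 CPM (adjusted p 0.143; 0.0122 with the block and 0.000169 without cerebellum sham 1). Of 6 markers of telencephalic astrocytes 3 were called higher in the hippocampus and 0 in the cerebellum (2 with the block), with a median of 0.26. The 3 were Mfge8 (log2 difference 0.94), Lhx2 and Emx2, and the last 2 are also in the list of telencephalic factors. The 3 not called, Gm3764, Lgr6 and Slc7a10, were at -0.63, -0.47 and -0.42. Gfap, the filament protein of astrocytes, was at 1220, 1478, 1506, 1689 and 2904 CPM and 321, 1259, 707, 1283 and 1167 CPM and was not called (adjusted p 0.106; 0.0127 with the block).

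Of 14 microglial markers tested 13 were called higher in the hippocampus and 0 in the cerebellum. The 13 lay between 1.30 and 1.92 on the log2 scale, and the summed level of the list was 1197 to 2873 CPM in the hippocampus and 374 to 1034 CPM in the cerebellum. Selplg, a selectin ligand, was at 63.1, 141, 90.8, 91.5 and 98.4 CPM against 12.6, 31.2, 21.2, 32.5 and 31.1 CPM (log2 difference 1.92 ± 0.29; adjusted p 0.000449). Cx3cr1, the fractalkine receptor, was at 117, 100.5, 46.2, 119.7 and 60.1 CPM against 27.5, 30.3, 16.1, 29.5 and 30.9 CPM (log2 difference 1.72 ± 0.29; adjusted p 0.00109). P2ry12, a purine receptor of resting microglia, averaged 6.58 ± 2.09 CPM and 2.73 ± 3.54 CPM and was not called (adjusted p 0.215; 0.0146 with the block and 0.000446 without cerebellum sham 1). Without hippocampus sham 1 and 2 the count was 7 and the median 1.40.

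Of 18 oligodendrocyte markers 3 were called higher in the hippocampus (6 with the block and 5 without cerebellum sham 1), not far from the 10.9% of all genes, and 0 in the cerebellum. Mbp, myelin basic protein, averaged 3470 ± 688 CPM and 2700 ± 158 CPM (adjusted p 0.19). Of 8 oligodendrocyte precursor markers 3 were called higher in the hippocampus (5 without cerebellum sham 1), against 10.9% of all genes. Gpr17, a receptor of differentiating precursors and 1 of the 3, was at 31.4, 21, 30.5, 32.4 and 46.3 CPM against 10.5, 9.62, 9.27, 6.7 and 6.85 CPM (log2 difference 1.91 ± 0.24; adjusted p 0.000114). Of 17 endothelial and mural markers 0 were called in edgeR's test, with 0 at an unadjusted p under 0.05, and 0 by DESeq2 and by voom. Vtn, vitronectin of pericytes, averaged 216 ± 89.4 CPM and 269 ± 95.4 CPM (log2 difference -0.31 ± 0.34). Of 7 meningeal fibroblast markers 2 were called higher in the cerebellum, Col1a1 and Col1a2 (1 without hippocampus sham 4), and 0 in the hippocampus. Transcripts of the mitochondrial genome were called higher in the hippocampus for 2 of 7 genes (7 with the block, 6 without cerebellum sham 1, and 0 without hippocampus sham 1 and 2, without cerebellum sham 3 or without cerebellum sham 4). mt-Co1 was at 39577, 16357, 8381, 16104 and 15451 CPM and 19310, 4152, 4811, 12144 and 12674 CPM, highest in hippocampus sham 1 (adjusted p 0.247; 0.0198 with the block).

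The regional difference was measured again in the libraries of bulbectomised mice, which share no sample with the sham libraries. There 2410 of 14562 genes were called higher in the hippocampus (16.5%) and 2392 higher in the cerebellum (16.4%). Of the 586 genes past 2-fold higher in the sham hippocampus 580 were tested, all 580 had the same sign and 566 were called in the same direction. Of the 431 past 2-fold higher in the sham cerebellum 425 were tested, 424 had the same sign and 414 were called in the same direction, and none of either set was called in the opposite direction by edgeR's test. The median log2 difference of the first set was 2.97 in sham and 3.07 in bulbectomy libraries, and of the second -2.81 and -2.63. Pcp2 stood at -10.36 in sham and -6.33 in bulbectomy libraries, Gabra6 at -10.27 and -6.91, and Camk2a at 4.45 and 4.43. The interaction of region and operation called 0 of 15764 genes (0%) in edgeR's test. Without adjustment 376 had a p under 0.05, fewer of the 15764 genes than this threshold would pass by chance. The smallest adjusted p was 0.0841. No other tool was run on it. A difference between the 2 sets of libraries was thus not detectable for any gene with 2 cerebellum libraries after bulbectomy.

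**Figure D5:**
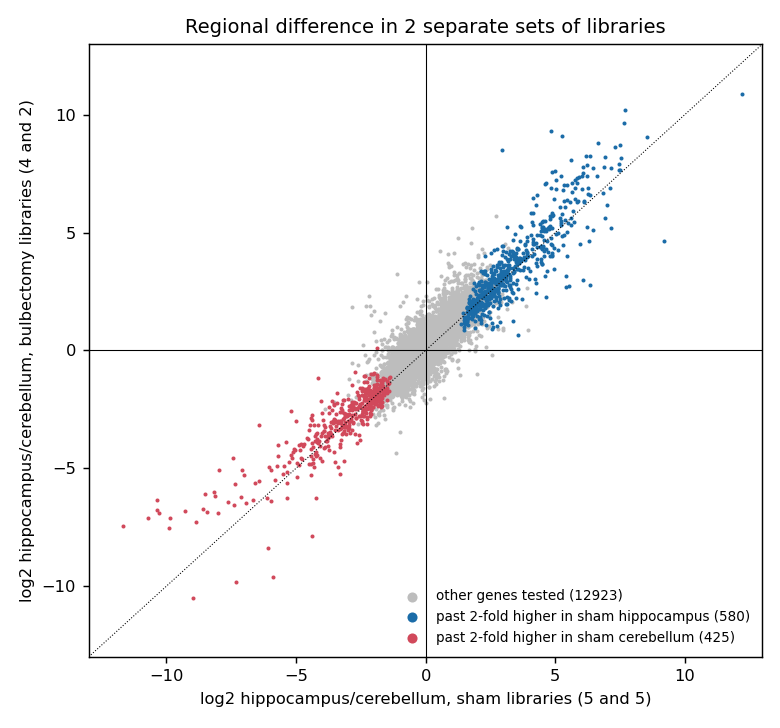
Log2 difference between hippocampus and cerebellum in sham libraries (horizontal axis) and bulbectomy libraries (vertical axis) for each gene tested in both, 1 point per gene, with the line of equal values dotted. Genes past 2-fold in sham libraries are coloured, and the 580 hippocampus genes lie above 0 and 424 of 425 cerebellum genes below 0 on the vertical axis.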

How the data were processed

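RNA was measured by polyA-selected, single-end sequencing of directional libraries, per the labels' protocols. The reads were trimmed with Trimmomatic, aligned with STAR to mm10 and counted with featureCounts, per the submitters' processing notes. No source used here gives versions, the annotation release or the strand setting, so that reads of genes overlapping on opposite strands may not be separated. The authors deposited raw counts per gene, 1 file per library with 55487 gene identifiers. The 12 assignment totals of each file were kept out, and 55227 identifiers matched GENCODE M21.

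Sham hippocampus and sham cerebellum, 5 libraries each, were compared with edgeR 4.0.16 in R 4.3.3 (filterByExpr, TMM scaling, robust quasi-likelihood fit, Benjamini-Hochberg adjustment over all 14209 genes), and with glmTreat against a fold of 2. The bulbectomy libraries were fitted alone, and the interaction in 1 fit of both operations. The scripts were tested on simulated data. There edgeR's test called 0.0289% of unchanged genes, 4% of genes changed 1.5-fold and 12% of genes changed 2-fold. Of genes at 4-fold it called 88%, and of genes at 0.25-fold 82.2%, with 46% and 31.1% of them past 2-fold by glmTreat. A gene not called in the report can therefore still differ by 2-fold. The simulation held 45 to 50 changed genes at each fold and 13864 unchanged ones, whereas 3092 of 14209 genes were called in the sham libraries. The Benjamini-Hochberg cut-off depends on the share of changed genes, so these call rates need not hold for the sham libraries. Counting error bounds each low value: 3 reads are 0.0190 to 0.881 CPM in the 10 libraries. The labels do not say that libraries of both regions with 1 number come from 1 mouse. Deviations from the region means of same-numbered libraries correlated at 0.480, 0.391, 0.534, 0.276 and 0.299 over genes. All were above 0.1, and the number was therefore also used as a block. The best-matching cerebellum library had the same number for hippocampus sham 1, 2, 3 and 5, but was cerebellum sham 1 for hippocampus sham 4. Correlations of unlike numbers are not given here, so these values cannot show that numbers stand for mice. Alternatives were other scalings (RLE, upper quartile), DESeq2 1.42.0, voom with sample weights (limma 3.58.1), other filters, a fold of 1.5, the block, libraries left out, the deepest library thinned, length and GC trends removed and all 24 libraries in 1 fit. The fit without cerebellum sham 1 and 2 together and the floor without hippocampus sham 4 were chosen after seeing the data.

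The comparison, its gene lists (755 symbols in 41 lists) and the tests were chosen with earlier results of these data known. Genes named are, in each direction, the 12 past 2-fold with the largest log2 difference and non-overlapping libraries (at least 5 CPM per kb in the higher region), the 3 with the smallest p, and up to 2 members per list (at least 1 CPM per kb), with the pairs of related genes of a list of 18. The remaining names (members of the GABA-A family, members of counts of 5 or fewer) were chosen after their values were seen. Start windows and their build come from RefSeq's table for GRCm38.p6, without those of chromosome 18. Some results on single genes are not reported here.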

Additional observations from a re-analysis of the deposited data

Results flagged for a closer look

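Each gene or marker list named in the report was looked at for a library far from the other 4 of its region, taken as one whose gap to the nearest library is over 0.71 of the range. This was the case for 62 of 334 groups of 5 libraries (18.6%), against a share of about 5% taken for chance. The genes share libraries and are not independent. The 5% does not hold near 0 reads, where a gene with reads in only 1 library of a region is flagged by construction. This was so for Dlx5, Emx2 and Fezf2 in the cerebellum and for Skor2 and Slc6a5 in the hippocampus. No conclusion is drawn from the difference between these shares. Cerebellum sham 1 was the highest of its region for the summed other cerebellar neuron markers (473 CPM), the summed oligodendrocyte precursor markers (147 CPM), Adcy1 (2383 CPM), Cbln3 (1561 CPM), Cplx2 (1909 CPM), Foxp2 (6.2 CPM), Gabra2 (61.3 CPM), Gabrb1 (58 CPM) and Gabrb2 (126 CPM). Cerebellum sham 1 was also the highest of its region for Gabrg1 (15.8 CPM), Gria4 (468 CPM), Grm5 (4.41 CPM), Homer1 (26.9 CPM), Kcna1 (106 CPM), Lgi2 (98.1 CPM), Neto1 (2.69 CPM), Neurod1 (348 CPM) and P2ry12 (8.98 CPM). Cerebellum sham 1 was also the highest of its region for Pde5a (68 CPM), Prox1 (36.7 CPM), Rora (194 CPM), Slc1a2 (568 CPM), Slc1a3 (1431 CPM), Syt1 (549.6 CPM), Tfap2b (58.5 CPM), Tiam1 (258 CPM) and Zbtb18 (461 CPM). Cerebellum sham 1 was the lowest of its region for Hpca (107 CPM) and Ppp1r1b (188 CPM). Cerebellum sham 2 was the highest of its region for Cpne7 (3.12 CPM), Ddn (20.2 CPM), Dlx5 (0.0867 CPM), Egr3 (2.77 CPM), Fezf2 (1.39 CPM), Htr1a (0.52 CPM), Icam5 (9.62 CPM), Kcnj4 (11 CPM) and Lamp5 (11.8 CPM). Cerebellum sham 2 was also the highest of its region for Lhx2 (2.69 CPM), Nrgn (169 CPM), Ntsr1 (0.867 CPM), Stx1a (14 CPM) and Trh (0.433 CPM). Cerebellum sham 2 was the lowest of its region for Kcnj12 (59.5 CPM). Cerebellum sham 3 was the highest of its region for Grm4 (887 CPM) and Slc6a11 (107 CPM). Cerebellum sham 3 was the lowest of its region for Cx3cr1 (16.1 CPM). Cerebellum sham 5 was the highest of its region for Emx2 (0.0595 CPM). Hippocampus sham 1 was the highest of its region for the summed other cerebellar neuron markers (91.9 CPM) and mt-Co1 (39577 CPM). Hippocampus sham 2 was the highest of its region for Kcnf1 (47.8 CPM), Lamp5 (172 CPM) and Tlx3 (0.124 CPM). Hippocampus sham 2 was the lowest of its region for the summed oligodendrocyte precursor markers (103 CPM) and Homer3 (8.46 CPM). Hippocampus sham 3 was the highest of its region for Gdf10 (15.5 CPM). Hippocampus sham 4 was the highest of its region for Hpcal4 (907 CPM), Skor2 (0.00634 CPM) and Slc6a5 (0.0507 CPM). Hippocampus sham 5 was the highest of its region for Gfap (2904 CPM). Hippocampus sham 5 was the lowest of its region for Pak6 (35.3 CPM) and Rgs14 (50.8 CPM). The nearest of the other cerebellum libraries stood at 64.7 CPM for Neurod1, 27.8 CPM for Rora and 22.1 CPM for Nrgn. The 29 flags of cerebellum sham 1 and the 15 of cerebellum sham 2 make up most of these results. The former library is the one with the largest rise of low-GC genes, the latter the one with the most reads outside genes. Whether these properties account for the values was not tested.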

How the results depend on the processing

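Of 111 named genes called, 102 were called under every one of the 24 alternatives that could be fitted for them, and none of their differences changed sign. Of the 2663 values of called genes under alternatives 37 were no longer past the threshold. These belonged to C1ql1, Col1a1, Drd2, Gabrg3, Id2, Neurod2, Slc17a6, Slc1a3 and Syt1. Of 37 named genes not called 18 passed under at least 1 alternative.

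The counts of called genes, 1551 towards the hippocampus and 1541 towards the cerebellum, moved by more than 1.5 times under voom with sample weights (2776 and 2791), a fold threshold of 1.5 (920 and 768), which is a stricter test by construction, the replicate block (2372 and 2552) and all 24 libraries in 1 fit (2472 and 2645; past 2-fold towards the hippocampus 970). With length and GC trends removed the cerebellum count was 2422. Leaving out 1 library gave 1300 to 2529 and 1227 to 2462, the upper ends without cerebellum sham 1. The cause of these shifts was not tested. The genes past 2-fold kept their sign in all of these fits. Beyond the results where it is given in the text, the block changed no other call of a named gene.

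Reversals were limited to named genes that were not called. Camk2b was at -0.0469 on the log2 scale with length and GC trends removed and -0.0162 without cerebellum sham 1 and 2. Cplx2 was at 0.104, Gabrg1 at 0.532 and Hcn2 at -0.158 without the same libraries. Foxp2 was at -0.494, Ppp1r1b at -1.91, Prkcd at 0.455 and Ttr at 0.0999 without hippocampus sham 1 and 2. Under voom Gabrg1 was at 0.855, Ppp1r1b at -0.961 and Ttr at 1.44. With the replicate block Gabrg1 was at 0.212, Ppp1r1b at -0.619 and Ttr at 0.604. With upper-quartile scaling Gabbr1 was at 0.0372 and Prkcd at 0.0138. Hcn2 was at -0.149 and Ttr at 0.0427 with the trends removed, and Hcn2 at -0.00362 with all 24 libraries. Leaving out 1 library in turn gave -0.39 to 0.118 for Cplx2, -0.163 to 0.0519 for Gabbr1, -0.646 to 0.726 for Gabrg1, -0.146 to 0.181 for Hcn2, -0.425 to 0.685 for Ppp1r1b, -0.449 to 0.203 for Prkcd, -0.825 to 1 for Ttr.

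Depth limits the low end: hippocampus sham 1, with 3255661 reads, cannot show levels much under 0.881 CPM, where 3 reads stand, whereas hippocampus sham 4 reaches 0.0190 CPM. The named alternatives for the bulbectomy libraries were limited to DESeq2, which gave 2716 and 2069 calls.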
